A study of Canis lupus familiaris with 124 samples.

Results

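The genes described here come from a ranking of genes by their relation to doxorubicin resistance in canine prostate and bladder carcinoma cell lines. The ranking was made by the study's authors, who related the expression of each gene across cell lines to the doxorubicin dose that lowered a readout to the midpoint, with a protein network guiding the choice. They made 1 list for metabolic activity and another for cell count. Genes of rank 150 or better in either list were taken, without genes that also stood in the first 150 of a carboplatin list and without 3 genes left out by name. This left 291 of the 32183 genes in the data, of which 148 came from the metabolic activity list and 143 from the cell count list, and none came from both. The last ranks inside were held by CLIC4, PCYT1A and WDR5 in the metabolic activity list and by POSTN, TMEM179B and ITGA5 in the cell count list. The first genes outside were TGM1, VPREB3 and DCAF13 in the former and EGF, ITGA6 and COL27A1 in the latter. The genes were thus selected on their expression levels in the cell lines (and on the drug response of those lines), so their levels in the lines are given as a description only. The resistance values themselves were not used here.

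RNA-seq was carried out on 8 cell lines and 9 tumor tissues of 9 dogs. Prostate adenocarcinoma (PAC) gave the lines Adcarc0846 (male, 6 years), Adcarc1508 (neutered male, 11 years) and Adcarc1511.1 (neutered male, 6 years), and lymph node metastases of the dog of Adcarc1511.1, which is patient 4, gave Metadcarc1511.2 and Metadcarc1511.3. Transitional cell carcinoma (TCC) gave TCC0840 (neutered male, 10 years), TCC1509 (neutered male, 9 years) and TCC1506 (female, 10 years). The paper lists TCC0840, TCC1509 and its tissue P6.1 under the prostate, and TCC1506 under the urinary bladder. The tissues were P2 (PAC, dog of Adcarc0846), Ln4.2 and Ln4.3 (metastases of patient 4), P6.1 with its metastasis Ln6.2 (TCC, dog of TCC1509), B7 (TCC, dog of TCC1506), and the bladder TCC samples B8 (female, 11 years), B9 (neutered female, 8 years) and B10 (female, 8 years). Each line stands for 1 dog, all lines were kept in the same serum-containing medium to high passage numbers (68 to 448), and 3 of the 8 lines come from patient 4. Lines and tissues were extracted with different kits, which cannot be told apart from the difference between culture and tissue.

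Doxorubicin is an anthracycline that intercalates into DNA, traps topoisomerase II on it and generates oxygen radicals. Cells meet it with DNA repair, arrest of the cell cycle, drug efflux, detoxification and resistance to apoptosis, and cells that do not divide are hit less. Contact with collagen and other matrix through integrins is another known source of drug tolerance, and it is studied mainly in tissue, where fibroblasts, vessels and leukocytes surround the carcinoma cells. Both lists hold genes of these kinds.

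The pooled lines held 33500674 to 55488800 expected counts and the tissues 11920463 to 18086895. Levels are given as counts scaled to library size (CPM), which are compared between samples, and levels of different genes are compared only as TPM, which also account for gene length. A value of 3 counts, taken as the floor below which a level is not resolved, was 0.05406 to 0.08955 CPM in the lines and 0.1659 to 0.2517 CPM in the tissues. Floors cover counting error only. In tissue, fewer cells of a type and less RNA per cell cannot be told apart.

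The first libraries (replicate 1) of both metastasis lines, Metadcarc1511.2 and Metadcarc1511.3, stood apart from all other cell line libraries in mitotic genes. CCNA2, the cyclin of S phase and entry into mitosis, was at 3.386 and 3.691 CPM in them, and at 22.81 to 102.7 CPM in the other 20 libraries. CCNB1, the cyclin that drives mitosis, was at 9.312 and 8.007 CPM against 22.85 to 191.9. The main counts that rest on these libraries are given with and without them, as are single values such as those of ERO1A and NR1H4.

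Among the doxorubicin list genes, 191 had at least 10 counts in every line (98 of the metabolic activity list, 93 of the cell count list) and 220 had at least 10 counts in every tissue. The lists differed at the low end. Under 10 counts in every line were found for 6 genes of the metabolic activity list and for 34 of the cell count list. Over all 32183 genes, 16093 were under 10 counts in every line. At least 10 counts were found in every line for 11338 of all genes and in every tissue for 11426. The median gene of the metabolic activity list was at 9.852 TPM in the lines and 10.51 TPM in the tissues, and that of the cell count list at 5.48 TPM in the lines and 14.53 TPM in the tissues. Among the abundant genes were RPL8, a ribosomal protein (median 5569 TPM in the lines), LGALS3, the carbohydrate-binding galectin 3 (1500 TPM), and DDX5, an RNA helicase (591.7 TPM).

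A group of 16 genes had at most 3 counts in every line and at least 10 counts in every tissue, which was the case for 144 of all 32183 genes. With at least 10 counts in every tissue there were 220 list genes and 11426 of all genes. Of the 16 list genes, 14 came from the cell count list and 2 from the metabolic activity list. They were the complement component C1QB, the myeloid adaptor TYROBP, the complement receptor C3AR1, the inflammasome sensor NLRP3, the leukocyte integrin ITGAX and the leukocyte regulators CYTH4 and RFTN1, the endothelial genes CD93 and CYYR1, the collagen gene COL6A2, the secreted proteins C1QTNF6 and ANGPTL2, the MHC class I gene DLA-79, and MPDZ, TMEM176A and ARMCX1. C1QB had 0 counts in all 8 lines and lay between 21.97 and 599.2 CPM in the tissues, with a median of 164.6 CPM. TYROBP likewise had 0 counts in all 8 lines and lay between 1.731 and 58.66 CPM, with a median of 20.13 CPM. By the way these genes were picked, lines and tissues cannot overlap in them, and differences between the lines lie below the floor.

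The metabolic activity list held genes whose level set the lines of patient 4 apart. The comparison asked in which of the genes Metadcarc1511.2 and Metadcarc1511.3, which the study describes as poorly sensitive to doxorubicin, lay outside the 5 lines of other dogs. Of 225 genes with at least 10 counts in both metastasis lines, 35 were at least 2-fold higher in both than in every line of another dog, and across all genes this held for 1.63% (216 of 13277). Of 206 genes with at least 10 counts in each line of another dog, 23 were at least 2-fold lower, against 0.931% of all genes (107 of 11496). All 58 genes belonged to the metabolic activity list. These values chose the genes, so nothing is read from the shares. Adcarc1511.1, the line from the primary tumor of the same dog, was also at least 2-fold outside the other dogs in 21 of the 35 higher genes and 17 of the 23 lower genes. A difference between dogs and a difference in sensitivity cannot be told apart here.

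Developmental transcription factors and adhesion molecules were among the genes with the largest gaps upward. CDH4 (R-cadherin, a cell adhesion molecule) was at 7.936 CPM in Metadcarc1511.2, 5.753 CPM in Metadcarc1511.3 and 2.527 CPM in Adcarc1511.1, and at 0.02631, 0, 0.02985, 0.01879 and 0.01924 CPM in Adcarc0846, Adcarc1508, TCC0840, TCC1506 and TCC1509. The 5 lines of other dogs had at most 1 count, so both metastasis lines were at least 64.25-fold higher. GLIPR1L2 was at 7.434, 6.649 and 9.927 CPM in the same 3 lines of patient 4 and at 0 to 0.01924 CPM in the others, at least 74.25-fold higher. The gene ENSCAFG00000029779, which the list names by its identifier only, was at 17.4, 29.11 and 14.56 CPM against at most 0.02985 CPM, at least 194.3-fold higher. CAPS2, a calcium-binding protein, was at 2.684, 3.315 and 3.316 CPM with no count in the other 5 lines, at least 29.97-fold higher. SIX6, a homeobox factor of eye and pituitary development, was at 0.7916, 0.5906 and 0.5459 CPM, with no count in the other 5 lines, which allowed a fold of at least 6.595. TBX1, a T-box factor of pharyngeal development, reached 1.815, 0.9716 and 0.9098 CPM against at most 0.05772 CPM, at least 10.85-fold higher. In all of these genes the primary line of patient 4 lay with the 2 metastasis lines.

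ENSCAFG00000029839 was the exception, with 3.456 and 2.705 CPM in the metastasis lines but 0.2224 CPM in Adcarc1511.1 and at most 0.01802 CPM elsewhere, at least 30.21-fold higher. C8H14orf39, a gene of meiotic chromosome pairing, was at 7.376 and 4.896 CPM against at most 0.1194 CPM, 41.01-fold higher. PROB1 was at 24.98 and 13.24 CPM against at most 0.5772 CPM, 22.94-fold higher.

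Some of these genes are neighbours in the genome. Gene order was read from the RefSeq table of the assembly UU_Cfam_GSD_1.0, in which 267 of the genes were found by symbol. C8H14orf39 and SIX6 lie next to each other, and CAPS2 and GLIPR1L2 lie 2 places apart among protein-coding genes, and all 4 were higher in both metastasis lines than in the lines of other dogs. Of the 10 pairs of list genes that lie next to each other, C8H14orf39 with SIX6 was the only pair in which both stood out in the same direction.

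**Figure D1:**
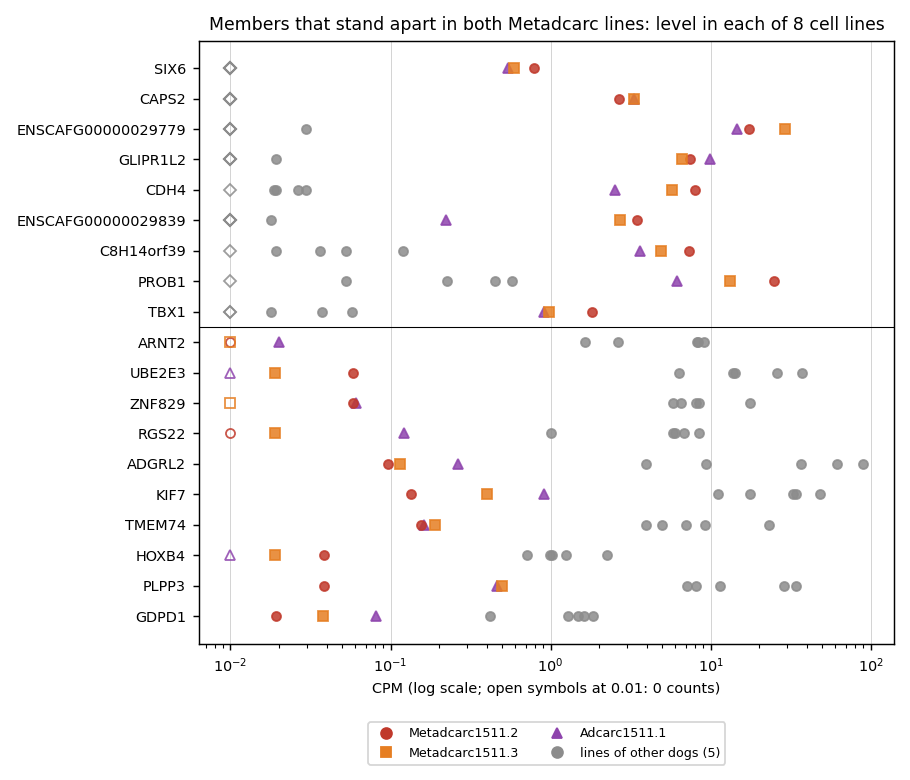
Level in CPM (log scale) of 9 of the genes with the largest gap upward and the 10 with the largest gap downward, with 1 point for each of the 8 cell lines and open symbols for 0 counts. Metadcarc1511.2 and Metadcarc1511.3 lie outside the 5 lines of other dogs in every row, for example with 7.936 and 5.753 CPM of CDH4, and Adcarc1511.1 of the same dog lies near them in most rows.

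Of the genes with the largest gaps downward, UBE2E3, ZNF829, ARNT2 and RGS22 were near or below the floor in the lines of patient 4. UBE2E3, a ubiquitin-conjugating enzyme, was at 0.05792 CPM in Metadcarc1511.2, 0.01905 CPM in Metadcarc1511.3 and 0 in Adcarc1511.1, and at 13.89, 14.15, 37.37, 6.389 and 26.15 CPM in Adcarc0846, Adcarc1508, TCC0840, TCC1506 and TCC1509. The metastasis lines were thus at least 110.3-fold lower than any line of another dog. ZNF829, a zinc finger protein, was at 0.05792 and 0 CPM in them and at 5.785 to 17.58 CPM in the other dogs, at least 99.87-fold lower. ARNT2, a bHLH-PAS transcription factor, had 0 counts in both metastasis lines and 1.64 to 9.104 CPM elsewhere, at least 28.31-fold lower. RGS22, a regulator of G protein signalling, was at 0 and 0.01905 CPM against 0.9996 to 8.448 CPM, at least 17.26-fold lower. Adcarc1511.1 was at 0 to 0.1213 CPM in these 4 genes.

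ADGRL2 (latrophilin 2, an adhesion receptor) was at 0.09654 and 0.1143 CPM against 3.919 to 89.29 CPM in the lines of other dogs, 34.29-fold lower. KIF7, a kinesin of the primary cilium that regulates Hedgehog signalling, was at 0.1352 and 0.4001 CPM against 11.07 to 48.46 CPM, 27.66-fold lower. PLPP3, which dephosphorylates bioactive lipid phosphates, was at 0.03862 and 0.4953 CPM against 7.138 to 34.18 CPM, 14.41-fold lower. TMEM74 was 20.68-fold lower, and HOXB4, a homeobox factor, and GDPD1, a lipid phosphodiesterase, were at least 12.37-fold and at least 7.266-fold lower. These genes were expressed in all 9 tissues, with ADGRL2 at 24.86 to 125.4 CPM and PLPP3 at 4.617 to 444.8 CPM.

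The same levels were taken without replicate 1 of both metastasis lines. The number of genes higher in both lines went from 35 to 30, of which 29 were among the 35. The number lower went from 23 to 20, all of them among the 23. Over all genes, 216 became 159 of 12701 (1.25%) and 107 became 101 of 11495 (0.879%). Line levels chose the genes, so nothing is read from how many stayed. CCNB1 was the mitotic gene that dropped out. With all libraries it was at 25.6 and 35.97 CPM in the metastasis lines and at 72.1 to 116.1 CPM in the lines of other dogs, and without replicate 1 it was at 32.47 and 50.09 CPM and no longer 2-fold lower. GMPR and LOC100855995 also dropped out of the lower genes, and F5, TRAPPC6B, C21H11orf42, RDH10, LOC480351 and ZBTB25 out of the higher ones.

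Tissue levels were not used to choose the genes, so the original tumors offered a view independent of the rule. In the metastases Ln4.2 and Ln4.3, 9 of the 35 genes that were higher in the metastasis lines lay above all 7 other tissues, namely SIX6, C8H14orf39, ENSCAFG00000029779, CAPS2, PAX9, GLIPR1L2, KLHDC8A, TBX1 and PROB1. Across all genes with a count in a tissue 4.62% lay above every other tissue in both metastases. Among all 216 genes that stood out upward in the metastasis lines by the same 2-fold criterion, the number was 47, or 21.76%, against 25.71% for the 35 list genes, so that list genes and other genes of this pattern had similar shares. PROB1 was at 11.11 and 17.99 CPM in the metastases and at 0.08389 to 3.689 CPM in the other 7 tissues. CAPS2 was at 4.773 and 3.773 CPM against 0 to 1.431 CPM, with the highest of the others in P2. GLIPR1L2 was at 1.995 and 2.628 CPM against 0 to 0.3356 CPM. PAX9, a paired-box factor of tooth and pharyngeal development, was at 6.269 and 6.199 CPM against 0.2146 to 4.104 CPM. SIX6 was at 0.2137 and 0.1348 CPM with no count elsewhere, which is at or below the floor in both.

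Of the 23 genes that were lower in the metastasis lines, 4 lay below all 7 other tissues in both metastases and 2 lay above. Across all genes 2.49% lay below every other tissue in both metastases, and among all 107 genes that were lower in the metastasis lines the number was 18, or 16.82%, against 17.39% for the 23 list genes. The 4 genes were UBE2E3, ADGRL2, NADSYN1, an enzyme of NAD synthesis, and SIRT5, a mitochondrial deacylase. Their levels in the tissues differed far less than in the lines. UBE2E3 was at 22.51 and 14.89 CPM in the metastases and at 32.64 to 126.8 CPM in the other tissues, while it was near 0 in both lines. SIRT5 was at 27.57 and 18.26 CPM against 31.04 to 95.49 CPM. TMEM74 went the other way, with 8.406 and 7.816 CPM in the metastases against 0.8166 to 4.589 CPM, whereas among the lines the 3 of patient 4 held its lowest levels.

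**Figure D2:**
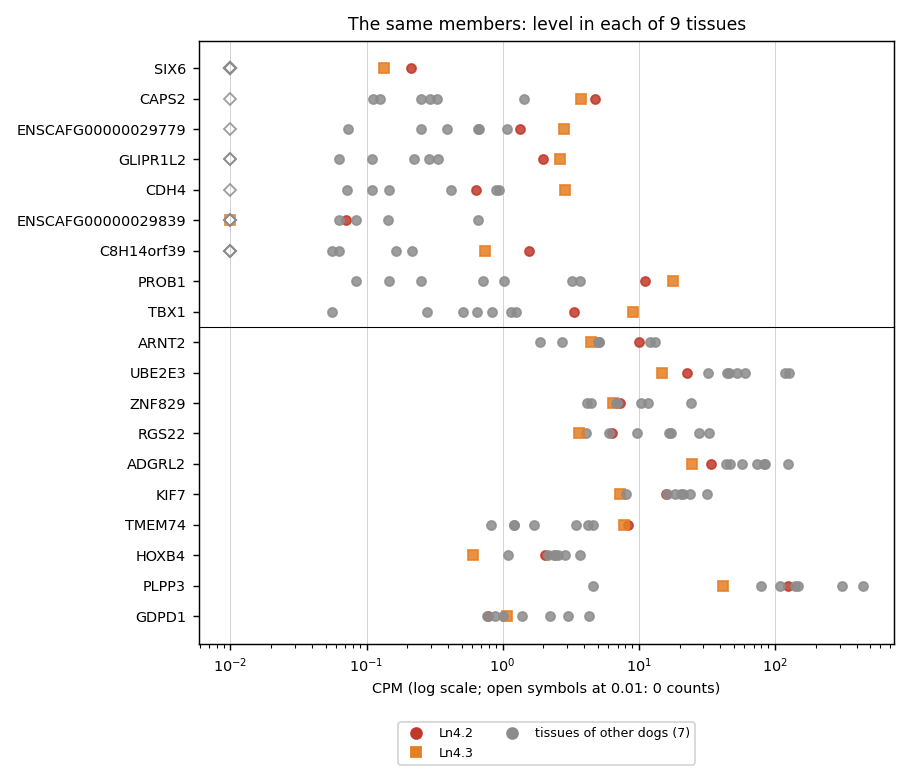
Level in CPM (log scale) of the same genes in the 9 tissues, with 1 point for each tissue and open symbols for 0 counts. Ln4.2 and Ln4.3 lie above the other 7 tissues for PROB1 (11.11 and 17.99 CPM) and below them for UBE2E3 (22.51 and 14.89 CPM), and within their range for many other genes.

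In the test of Ln4.2 and Ln4.3 against the other 7 tissues, 1 of 272 tested list genes passed an adjusted p of 0.05, whereas 0.0426% of all tested genes were called higher and none lower. It was FBXL16, an F-box protein of the cell count list, with 14.89 and 20.75 CPM in the metastases and 0 to 0.3356 CPM in the others (log2 difference 6.81 ± 0.76 SE, adjusted p = 0.0229, edgeR quasi-likelihood test). In the lines it was at 0.01905 to 0.1127 CPM, also in both metastasis lines. Both metastases come from 1 dog. An unadjusted p under 0.05 was reached by 23 list genes, or 8.456%, against 6.01% of all tested genes, and DESeq2 called 5 higher and 1 lower, against 0.909% and 0.469%. The call of FBXL16 was lost without Ln4.2, Ln4.3, B8, B9 or Ln6.2, with adjusted p from 0.0933 to 0.254.

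The lines were next compared with the tissues from which they were derived, which asks what of the ranked genes the culture retained. The line levels in this comparison are those that entered the rule, so counts over the list genes support nothing beyond themselves. In the pair Metadcarc1511.2 with Ln4.2 and the pair Metadcarc1511.3 with Ln4.3, 15 of 287 tested list genes were upregulated and 56 downregulated in the lines (2-fold change, adjusted p no higher than 0.01), against 1.69% and 9.56% of all tested genes in these directions (edgeR, pair as covariate). The share called was 32.62% (46 of 141) in the cell count list and 17.12% (25 of 146) in the metabolic activity list. With DESeq2, 44 were upregulated and 88 downregulated, against 9.83% and 22.2% of all tested genes. Without replicate 1 of both lines, edgeR called 21 upregulated and 63 downregulated of 285, and of the 71 calls only PPTC7 was lost.

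Most collagen and matrix genes of the lists were downregulated. Of 13 tested list genes for collagens and matrix, 9 were downregulated and none upregulated, and the median log2 ratio, with a floor of 3 counts, was −9.72 against −0.03 over all tested genes. Of 15 further matrix genes in the following 150 ranks, 6 were downregulated. COL6A1, a chain of collagen VI, was at 2770 CPM in Ln4.2 and 673.7 CPM in Ln4.3, and at 0.07723 and 0.0381 CPM in the lines, at least 11788-fold lower in each pair. COL6A2, which forms collagen VI with it, was at 1600 and 378.4 CPM in the tissues and had no count in either line, at least 6620-fold lower. COL16A1, COL5A3, BGN (the proteoglycan biglycan), POSTN (periostin), LOXL2 (a collagen cross-linking enzyme), PCOLCE and CTSK were the other genes called. COL3A1 was at 20308 and 2354 CPM in the tissues and at 0 and 1.105 CPM in the lines, and did not pass (adjusted p = 0.0331, edgeR), while DESeq2 called it. COL5A2 was at 2331 and 481.1 CPM in the tissues and at 1350 and 758.3 CPM in the lines, a log2 difference of −0.09 that did not pass.

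Leukocyte and endothelial genes of the lists followed. Of 15 tested leukocyte genes 8 were downregulated (among them CYTH4, GIMAP8, TYROBP, NLRP3, ITGAX, C3AR1 and C1QB), with a median log2 ratio of −7.57 (11 without replicate 1 of the lines), and 5 of 6 endothelial genes were downregulated (CD93, ADGRA2, LYVE1, ICAM2 and CYYR1), with a median of −9.05. C1QB was at 164.6 and 335 CPM in the tissues with no count in the lines, at least 2841-fold lower. CYTH4 was at 29.28 and 44.07 CPM against 0 in both lines, at least 505.4-fold lower. Marker genes of these cells also differed, but they are no independent sign, since 21 of the 22 stand in the same doxorubicin lists (19 of them in the following 150 ranks). The sum of 7 leukocyte markers was 1341 and 3421 CPM in the metastases and 2.626 and 3.905 CPM in their lines. That of 7 fibroblast and matrix markers was 5741 and 857.5 CPM against 309.6 and 255 CPM. LOX among them was at 298.4 and 17.25 CPM against 225 and 188.6 CPM. OGN was at 1.28 CPM in Ln4.3 and 1.295 CPM in its line, and the other matrix markers were lower in both lines. That of 3 endothelial markers was 826.5 and 417.3 CPM against 82.6 and 70.7 CPM. FLT4 made up most of it in the lines, at 74.15 and 108.3 CPM in the metastases against 81.92 and 69.69 CPM. TEK and VWF were lower in both lines. Over all 8 lines 3 of the 7 leukocyte markers were at most at 3 counts. The part of these cells in the results was not tested.

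Of 13 tested developmental transcription factors 4 were downregulated (TBX18, LEF1, ARNT2 and ZNF503) and none upregulated, while the median log2 ratio of the 13 was 0.57, with 7 higher and 5 lower in both pairs. Without replicate 1, 12 were tested, of which 4 were downregulated and 1 upregulated (PAX9, 2.10, adjusted p = 0.00951, edgeR). Also downregulated was MGST1, a membrane-bound glutathione transferase that detoxifies reactive compounds. MGST1 had no count in any of the 8 lines and was at 0.3206 to 64.47 CPM in the tissues, with 64.47 and 8.625 CPM in Ln4.2 and Ln4.3, at least 150.9-fold lower in the metastasis lines. NFE2L2, the transcription factor that induces such enzymes, was at 110.6 and 131 CPM in the lines and 207.9 and 105.7 CPM in the tissues and was not called.

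The 15 upregulated genes had diverse roles. NR1H4, the bile acid receptor FXR, had the largest change, with 38.19 and 41.05 CPM in the lines and 0.9973 and 1.415 CPM in the tissues (log2 difference 5.02 ± 0.28 SE, 32.52-fold, adjusted p = 0.00441, edgeR), and without replicate 1 it was at 22.23 and 29.82 CPM, 21.14-fold higher. GNPNAT1, an enzyme of the hexosamine pathway that feeds protein glycosylation, was at 124 and 94.59 CPM against 14.32 and 10.65 CPM (3.11 ± 0.16, 8.644-fold). ERO1A, which oxidizes protein disulfides in the endoplasmic reticulum, was at 1263 and 840.4 CPM against 147.7 and 113.4 CPM (2.97 ± 0.24, 7.848-fold). Without replicate 1 ERO1A was at 746.3 and 406 CPM, 4.173-fold higher and still called (2.06 ± 0.25, adjusted p = 0.00947, edgeR). The keratin KRT80 was at 1235 and 1434 CPM against 125.2 and 220.8 CPM (2.98 ± 0.29, 7.888-fold), and the basement membrane protein LAD1 and the protocadherin PCDH1 were 4.954-fold and 3.156-fold higher. Of 13 epithelial adhesion genes these 3 were upregulated and MPDZ, a tight junction scaffold, was downregulated. Without replicate 1 the cadherin CDH3 was upregulated as well (2.09, adjusted p = 0.00981, edgeR), which made 4. LGALS3 was 4.513-fold higher. Sums over 5 epithelial markers (all in the following 150 ranks of the lists) were 1462 and 1232 CPM in the lines and 694.2 and 833 CPM in the tissues.

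Genes of the cell division machinery and of RNA processing were not among the calls. None of 14 list genes for mitosis and centrosome and none of 10 for RNA processing passed, with median log2 ratios of −0.02 and −0.08. Without replicate 1 the medians were 0.22 and −0.24, and MZT1, a subunit of the gamma-tubulin complex, was called higher (2.06 ± 0.26, adjusted p = 0.00971, edgeR). Their summed level over the 14 mitotic genes was 659.2 to 899.1 CPM in the lines. In the tissues it was 921.3 CPM in B7 and 397.9 to 641.9 CPM in all others, below every line. Over the 10 RNA processing genes the sums were 1330 to 1983 CPM in the lines and 1141 to 1834 CPM in the tissues. In the following 150 ranks, 2 of 30 further mitotic genes were upregulated (HAUS2 and VRK1).

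Integrins, which anchor cells to the matrix, did not move as one. ITGA3, a laminin-binding chain, was at 1447 and 1303 CPM in the metastasis lines and 185 and 271.2 CPM in their tissues, a log2 difference of 2.60 that missed the threshold (adjusted p = 0.0111, edgeR) and passed without replicate 1 (2.76, adjusted p = 0.0088). ITGB1, its partner, was at 1073 and 915.5 CPM against 573.6 and 453.3 CPM (0.94, not called), and ITGB2, the beta chain of leukocytes, at 0.8496 and 0.1334 CPM against 108.1 and 189.3 CPM (−8.34, adjusted p = 0.0115). The leukocyte chain ITGAX was the 1 of 5 that was called with all libraries. Without replicate 1, ITGB2 was called as well (−8.52, adjusted p = 0.00874, edgeR), so that 1 of the 5 was higher and 2 were lower. None of 10 mitochondrial, 14 zinc finger and 3 primary cilium genes was called with all libraries. Without replicate 1 the zinc finger gene ZNF829 was called lower (−7.78, adjusted p = 0.00728, edgeR). Of 9 lipid and membrane genes NR1H4 was called, while PCYT1A, the regulated enzyme of phosphatidylcholine synthesis (0.29), and the choline transporter SLC44A1 (0.71) were not.

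HNRNPC, RB1 and PCNT had overlapping ranges in lines and tissues. HNRNPC, an RNA-binding protein of pre-mRNA, was at 137.9 to 215.3 CPM in the 8 lines and 125.4 to 288.4 CPM in the 9 tissues. RB1, the retinoblastoma protein that holds cells in G1, was at 31.29 to 76.14 CPM in the lines and 24.92 to 61.48 CPM in the tissues, and PCNT, a scaffold of the centrosome, at 93.55 to 220.4 CPM and 67.7 to 158.4 CPM. CDH3 (P-cadherin) varied far more among tissues, from 4.721 CPM in P2 to 762.9 CPM in B7, than among the lines, with 36.33 to 416.9 CPM. OVOL2, an epithelial transcription factor, was at 0 in Ln6.2 and 0.5007 CPM in P2, the tissues with the lowest sums of epithelial markers (253.3 and 172.6 CPM), and at 7.266 to 44.23 CPM in the others.

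**Figure D3:**
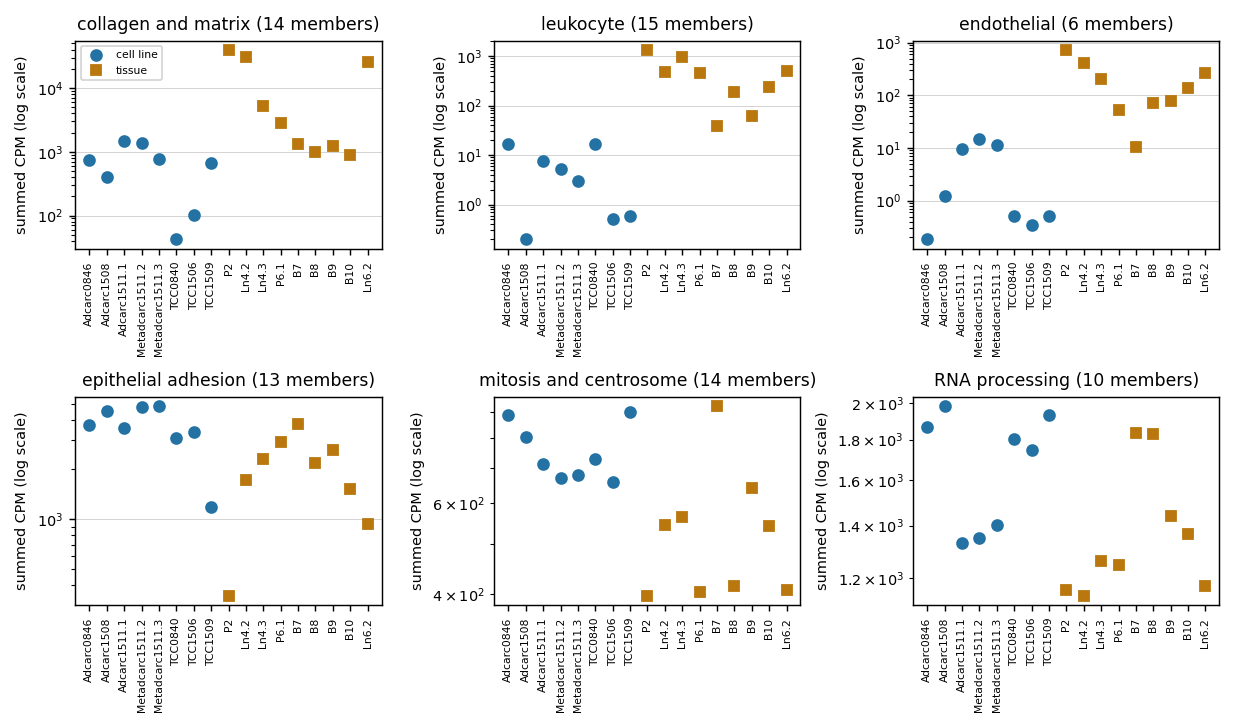
Summed CPM (log scale) of the list genes of 6 roles, with 1 point for each of the 8 lines and 9 tissues. Leukocyte genes (0.1982 to 17.1 CPM in the lines, 39.18 to 1313 CPM in the tissues) do not overlap. Mitotic genes (659.2 to 899.1 and 397.9 to 921.3 CPM) overlap only through the tissue B7.

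Over all 5 pairs of line and own tissue, 11 of 241 tested list genes were downregulated and none upregulated, whereas 1.29% of all tested genes were downregulated and 0.0389% upregulated. The 11 were DLA-79, C1QTNF6, CYYR1, COL6A1, ITGAX, RFTN1, POSTN, CD93, CYTH4, LEF1 and COL8A2. COL8A2, a collagen of basement membranes, was lower by 3.97 ± 0.48 on the log2 scale (adjusted p = 0.00993, edgeR). In the lines with an own tissue it lay between 0.4827 and 1.484 CPM, and in those tissues between 5.525 and 17.45 CPM. POSTN was at 13.86 to 1305 CPM in all 9 tissues and at 0 to 0.182 CPM in all 8 lines. LEF1, a transcription factor of Wnt signalling, was at 3.856 to 49.22 CPM in the tissues and at 0.01924 to 0.1127 CPM in 7 lines, with 4.836 CPM in TCC0840, which has no tissue here. An unadjusted p under 0.05 was reached by 68 list genes, or 28.22%, against 27.8% of all tested genes. DESeq2 called 4 list genes upregulated and 44 downregulated, against 3.04% and 11.5% of all tested genes. The count was sensitive to single pairs, from 2 without Metadcarc1511.2 (Metadcarc1511.3, 4, Adcarc0846 and TCC1509, 5 each) to 23 without TCC1506. Over all tested genes the 171 calls became 22, 25, 36, 58 and 591 in that order. Of the 5 pairs 2 come from patient 4 and were fitted as separate pairs. With these 2 summed, 6 list genes passed, and 54 of all 12985 tested genes.

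In the 2 TCC pairs, 0% of all tested genes and none of 247 tested list genes passed, with 34 list genes (13.77%, against 6.21% of all tested genes) at an unadjusted p under 0.05 and 27 downregulated by DESeq2 (against 3.38%). The test of the difference between the PAC metastasis and TCC effects called none of 290 list genes and likewise 0% of all tested genes, with 65 list genes (22.41%, against 9.74% of all tested genes) at an unadjusted p under 0.05 and 44 called by DESeq2 (against 5.25%).

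Comparing tumor classes in tissue asked whether these genes differ between TCC and PAC without using the lines. Tumor class went largely with site and sex, so these cannot be told apart. All PAC tissues are from males, and Ln4.2 and Ln4.3 are lymph node metastases. Among the primary TCC tissues, B7 to B10 are bladder tumors of females, and P6.1 is listed by the paper as prostate tissue, from a male. P6.1 thus shares its organ with the PAC tissue P2. Between the 5 primary TCC tissues (all but Ln6.2) and the 3 PAC tissues, 30 of 263 tested list genes were lower in TCC and 1 was higher at an adjusted p of 0.05, against 4.59% lower and 1.08% higher over all tested genes. The cell count list held 22 of the 30 and the metabolic activity list 8. Matrix genes made up the largest group, with 10 of 13 tested genes lower and a median log2 difference of −3.61, against 0.15 over all genes. COL3A1 was at 24996, 20308 and 2354 CPM in P2, Ln4.2 and Ln4.3 and at 748.9, 160.8, 424.6, 630 and 319.3 CPM in P6.1, B7, B8, B9, B10 (−5.09 ± 0.83 SE, 34.04-fold lower, adjusted p = 0.0182, edgeR). COL6A1 was at 3811, 2770 and 673.7 CPM against 156.5, 28.99, 73.61, 82.19 and 57.3 CPM (−4.88 ± 0.71, 29.38-fold lower, adjusted p = 0.0135). The groups did not overlap in either gene. In the following 150 ranks, 1 of 14 tested matrix genes was lower, the cross-linking enzyme LOX.

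Leukocyte genes were lower in TCC for 4 of 13 tested genes (among them GIMAP1, UBASH3A and C3AR1). Of 6 endothelial genes ADGRA2 was lower. The angiopoietin-like gene ANGPTL2 was at 243.6, 257 and 21.76 CPM against 0.8978 to 13.99 CPM (28.71-fold lower), and A2M, a broad protease inhibitor, was at 28.11, 66.25 and 695.7 CPM against 1.154 to 12.08 CPM (44.08-fold lower). FGF23, a phosphate-regulating hormone, was at 1.431, 6.981 and 5.795 CPM in PAC and at 0 in 4 of the TCC tissues, with 0.08389 CPM in B10. TBX18, a T-box factor of mesenchymal development, was at 32.76, 6.696 and 8.288 CPM against 0 to 0.2212 CPM, and C1QTNF3 at 32.98, 18.88 and 0.9434 CPM against 0 to 0.8846 CPM. Levels of these 3 genes in most TCC tissues were at or under the floor or close to it, so no fold is given.

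RGS22 was the single gene that was higher in TCC, with 17.31, 9.811, 16.71, 32.95 and 27.6 CPM against 4.077, 6.411 and 3.639 CPM (2.16 ± 0.48, 4.466-fold, adjusted p = 0.0365, edgeR). Its adjusted p was 0.0511 to 0.116 without B8, B9, B10 or any 1 of the PAC tissues, and 0.193 with Ln6.2 added. It was also among the genes with the largest gap downward in the metastasis lines. Genes of mitosis and centrosome gave 0 calls in 14 tested and RNA processing 0 in 10. Of 13 epithelial adhesion genes MPDZ was lower, and the others did not pass.

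The PAC tissues also differed in marker sums. Leukocyte markers were at 3406, 1341 and 3421 CPM in P2, Ln4.2 and Ln4.3 and at 171.7 to 2999 CPM in the 5 TCC tissues, fibroblast and matrix markers at 8196, 5741 and 857.5 CPM against 321.9 to 2421 CPM, endothelial markers at 1364, 826.5 and 417.3 CPM against 60.54 to 298.7 CPM, and epithelial markers at 172.6, 694.2 and 833 CPM against 1227 to 3409 CPM. The part of these cells in the differences was not tested. Ln6.2, the lymph node metastasis of a TCC, had 12810 CPM of COL3A1 and 1926 CPM of COL6A1, within the PAC range. With Ln6.2 added to the TCC tissues no list gene passed by edgeR, and neither did any of all 13581 tested genes. Of the 3 PAC tissues 2 are from 1 dog. COL3A1 was not called without B8 (adjusted p = 0.0557, edgeR) or with Ln6.2 added (0.389). Without B8 only 3 list genes were called, without P2 9, without B9 12, without Ln4.2 14, and without the other tissues in turn 22 to 36. Over all tested genes the 781 calls became 123, 159, 225 and 255 in that order, and 481 to 1095 without the other tissues.

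**Figure D4:**
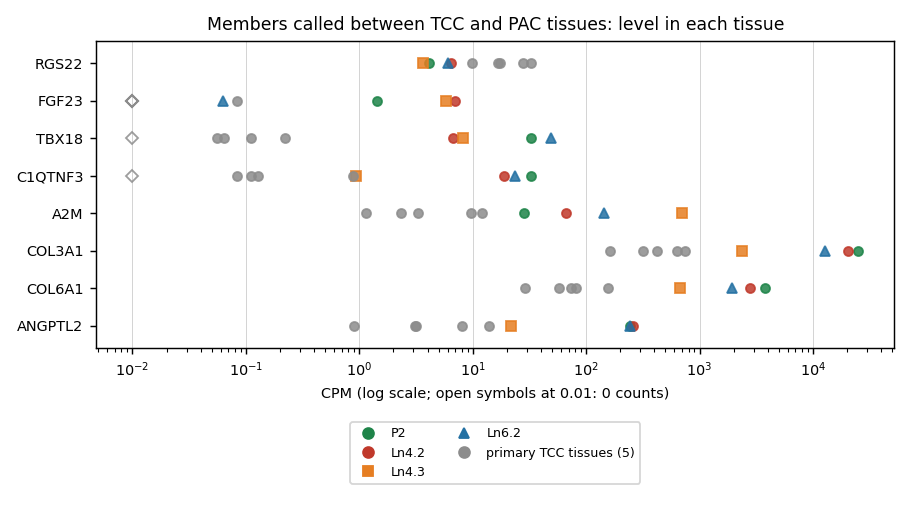
Level in CPM (log scale) of called genes with the largest differences between primary TCC and PAC tissues, with 1 point for each tissue, Ln6.2 shown apart and open symbols for 0 counts. PAC tissues lie above all 5 TCC tissues for COL3A1 (2354 to 24996 CPM against 160.8 to 748.9 CPM) and below them for RGS22 (3.639 to 6.411 CPM against 9.811 to 32.95 CPM).

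Differences between the libraries of a line were not themselves the basis of the ranking. The line levels behind the ranking came from these same libraries, however. A first library that is low or high also shifts the level of its line, so this comparison is not independent of the rule. In 6 lines replicate 1 had the lowest passage number, and replicates 2 and 3 were taken 6 to 11 passages later. Of 183 tested list genes, 21 were higher and 32 lower in the later libraries at an adjusted p of 0.05 (edgeR, line as covariate), against 12.1% and 13.4% of all tested genes in these directions. In either direction 28.96% of the list genes were called, near the 25.5% of all tested genes, so nothing particular to the list is read from the counts. The counts by role below stand beside the same shares of all tested genes. The libraries of a line are flasks of the same culture at different passages, which the study pools as technical replicates, so the p-values measure the spread between flasks and not between dogs. Passage and time of harvest cannot be told apart. The 53 calls became 30 without Adcarc1508, 32 without Metadcarc1511.2, 15 without replicate 2 and 1 without the line as covariate. Over all tested genes the 2761 calls became 1589, 1496, 623 and 147 in that order.

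Some genes of cell division were higher in the later libraries, and CCNA2, CCNB1 and PLK4 among them lost their calls without both metastasis lines. Of 14 list genes for mitosis and centrosome 5 were higher and none lower, and in the following 150 ranks there were 9 higher and 1 lower of 30 (AURKA and NEK2 among the higher). CCNA2 was higher by 1.42 ± 0.38 on the log2 scale (adjusted p = 0.0133, edgeR), CCNB1 by 1.09 ± 0.38 (adjusted p = 0.0445) and PLK4, the kinase of centriole duplication, by 1.06 ± 0.32 (adjusted p = 0.0262). HAUS8, a subunit of the augmin complex of the spindle, and SSNA1, a centrosomal protein, were higher by 0.65 ± 0.19 and 0.76 ± 0.12. PLK1, the mitotic kinase, showed a difference of 0.97 ± 0.40 and did not pass (adjusted p = 0.0847).

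For CCNA2, PLK1 and PLK4 the largest differences were in both metastasis lines. CCNA2 was at 3.386 CPM in replicate 1 of Metadcarc1511.2 and at 28.76 and 37.84 CPM in replicates 2 and 3, and at 3.691, 44.69 and 52.51 CPM in the 3 libraries of Metadcarc1511.3. PLK1 was at 7.88, 27.06 and 50.11 CPM in the former line and at 9.824, 26.68 and 99.58 CPM in the latter. In Adcarc1508 CCNA2 was at 23.78, 79.2 and 102.7 CPM, in TCC1509 at 39.46, 73.59 and 68.13 CPM, in Adcarc1511.1 at 22.81, 44.68 and 28.45 CPM, and in TCC1506 at 75.4, 64.56 and 59.69 CPM. Later libraries were thus above the first in 5 of 6 lines, and below it in TCC1506. With both metastasis lines left out, 4 list genes were higher and 16 lower of 187, and 962 of all 10965 tested genes were called in either direction. CCNA2 (0.74), CCNB1 (0.62) and PLK4 (0.43) did not pass there, with adjusted p of 0.0849, 0.271 and 0.183 (edgeR).

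**Figure D5:**
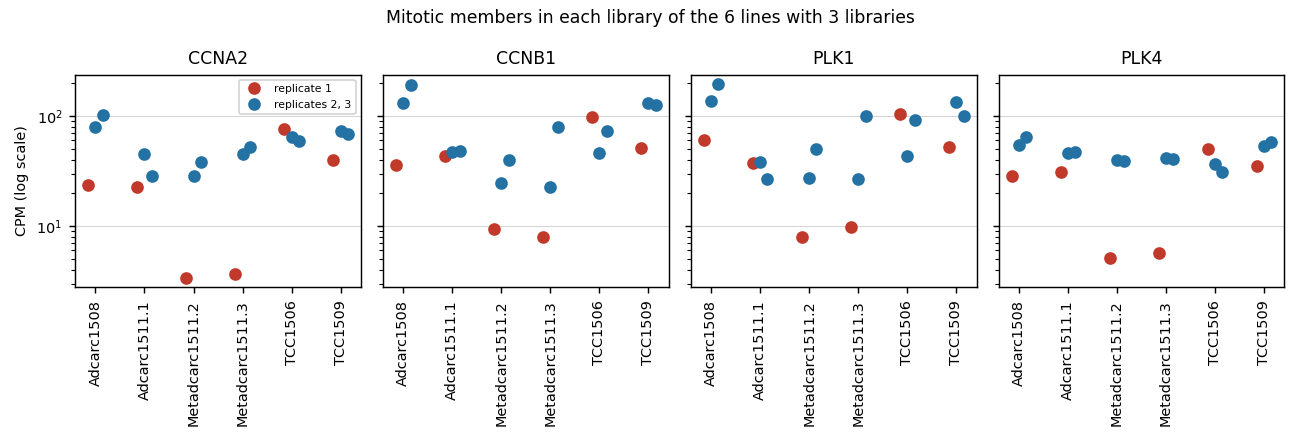
Level in CPM (log scale) of CCNA2, CCNB1, PLK1 and PLK4 in each of the 18 libraries of the 6 lines with 3 libraries, with replicate 1 in red and replicates 2 and 3 in blue. The first library of each metastasis line is lowest for CCNA2, at 3.386 and 3.691 CPM, and the first library of TCC1506 lies above its later ones.

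Other genes changed in all 6 lines. TUBA4A, an alpha tubulin, was above the first library in both later libraries of every line, for example with 102.6 CPM in replicate 1 and 409.2 and 503.9 CPM in replicates 2 and 3 of Adcarc1508 (1.47 ± 0.15, 2.763-fold, adjusted p = 9.38e-05, edgeR), and it stayed called without both metastasis lines at 1.39. CYCS, cytochrome c, which carries electrons in respiration and triggers apoptosis when released, was higher by 0.78 ± 0.12 (adjusted p = 0.000639) in 6 of 6 lines. Both identifiers that the list assigns to SF3A3, a splicing factor subunit at rank 1 and again at rank 28, were higher, by 0.65 ± 0.16 and 0.72 ± 0.18. In the pooled lines the former was at 85.56 to 188.7 CPM and the latter at 13.43 to 32.86 CPM, both lowest in Metadcarc1511.3.

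The 32 lower genes likewise had diverse roles. PARD3B, a cell polarity protein, was at 188.5, 43.75 and 47.56 CPM in replicates 1, 2 and 3 of Adcarc1508 and was below the first library in all 6 lines (−1.52 ± 0.16, 2.859-fold lower, adjusted p = 9.38e-05, edgeR). NR1H4 was lower by 1.33 ± 0.31, in 5 of 6 lines and not in TCC1506 (not called without both metastasis lines, adjusted p = 0.0728, edgeR), and went from 76.06 CPM in replicate 1 of Metadcarc1511.2 to 18.63 and 25.85 CPM in the others. ERO1A, lower by 1.04 ± 0.23, was at 2490 CPM there and at 1071 and 420.7 CPM in the later libraries, and NOTCH1, a receptor of cell fate decisions, was lower by 0.96 ± 0.19, both of them in all 6 lines. LAMB3, a chain of laminin 332 (−1.30), the histone demethylase KDM6B (−1.04) and MCC, a regulator of Wnt signalling (−1.14), were also lower. Of 13 tested zinc finger genes 6 were lower and none higher (ZBTB22, ZNF496, ZBTB25, ZNF449, ZNF70 and ZNF502). NR1H4 and ERO1A were thus higher in the metastasis lines than in their tissues and lower in later than in first libraries.

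Leukocyte and endothelial genes could not be compared between passages, since none of 15 and none of 6 passed the count filter.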

How the data were processed

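Single reads of 75 bases went through Trimmomatic 0.36, STAR 2.5.3 (genome CanFam3.1, Ensembl 94) and RSEM 1.3.0, as the authors' methods and the submitters' processing notes state. The authors deposited expected counts and TPM per lane. Expected counts were summed here over 4 lanes of each of 31 libraries and over the libraries of a line and rounded (17.4% of values above 0 were not whole). Median TPM per gene are from the deposited TPM columns.

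Members and lists were chosen with earlier results of these data known. Genes were named by rule: per comparison the called genes with the 8 largest changes in each direction, fixed examples of known roles, and 10 genes per direction for the line levels. Other genes are named for group counts, and were chosen after their values were seen. Symbols come from the authors' list.

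Tests used edgeR 4.0.16 (TMM, quasi-likelihood, Benjamini-Hochberg over all tested genes) in R 4.3.3, with a filter of 10 counts in all samples of either group. Scripts were tested on simulated data. Alternatives were DESeq2 1.42.0, RLE scaling, no filter, no pair or line covariate, and samples left out. Pairs come from 1 dog each by the labels, and deviations of line and tissue correlated at −0.11 to 0.19. Labels of 3 lanes of Adcarc0846 count upward, and were assigned by title. Sample numbers in the labels form 2 series, and all tissues, Adcarc0846, TCC0840 and 2 libraries of TCC1506 stand in one of them. Adcarc1258, P1 and P3 were not analysed here. Values of some genes under the naming rule are not reported here.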

Additional observations from a re-analysis of the deposited data

Results flagged for a closer look

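In the 5 primary TCC tissues FGF23 was at 0.08389 CPM in B10 and at 0 in the other 4, so that B10 lay apart from the others (gap over range 1.000, where 0.71 is the 95% limit for 5 samples). This value is 1 count, under the floor. C1QTNF3 was at 0.8846 CPM in P6.1 and at 0 to 0.1283 CPM in the other 4 TCC tissues (gap over range 0.855). The tests covered 10 groups, of which these 2 had such a sample, and about 1 in 20 groups would by chance.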

How the results depend on the processing

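Single genes were followed through the alternatives only where the main edgeR fit gave an unadjusted p under 0.05. This choice leaves little room for a turned direction. Among these genes no alternative turned a direction, 943 gene values kept their side of the threshold, 72 passed it and 164 lost it. For the 11 list genes called over 5 pairs, DESeq2 gave 48, no count filter 19, no replicate block (no pair covariate) 28, an adjusted p of 0.05 32, and both pairs of patient 4 summed 6. Over all tested genes the 171 calls became 1873, 306, 435, 745 and 54 in that order. Leaving out a pair gave 2 to 23 and a replicate 9 to 14. For the 71 of the PAC metastasis pairs, DESeq2 gave 132 and an adjusted p of 0.05 131, while the 1701 calls over all tested genes became 4841 and 4804. For TCC pairs DESeq2 gave 27 and for the difference 44, where edgeR gave 0. For the 31 of TCC against PAC tissues, DESeq2 gave 70, Ln6.2 added 0, and leaving out a tissue 3 to 36. Over all tested genes the 781 calls became 2340, 0, and 123 to 1095. For the 1 of the metastases against other tissues DESeq2 gave 6 and leaving out a tissue 0 to 2. For the 53 of passage, no replicate block (no line covariate) gave 1, leaving out a line 30 to 63, and leaving out replicates 2 or 3 15 to 38. Both metastasis lines left out gave 20, of which 18 were among the 53. Over all tested genes the 2761 calls became 147, 1496 to 3246, 623 to 2163, and 962. The setting without both metastasis lines and the levels without replicate 1 were added after seeing the data. The pair or line covariate changed no call of the TCC pairs. The cause of these shifts was not tested. Few dogs, and 3 lines and 2 metastases from 1 of them, limit all comparisons.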
